A study of Mus musculus with 6 samples.

Results

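The mucosal pentraxins Mptx1 (entry NM_025470) and Mptx2 (NM_001205011) are a pair of paralogous genes, 2 of the genes behind 18376 RefSeq entries measured in intestinal stem cells with and without the Polycomb proteins Ring1a and Ring1b. Each symbol had 1 row in each of the 2 deposited tables. The pair was chosen by its measured values in these data, that is, by the levels and folds of both comparisons below. Those values are therefore given as a description of the pair and not as a test of it.

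RNA came from Lgr5-GFP+ cells sorted from small-intestinal crypts of C57BL/6 mice that had received 3 tamoxifen injections and were killed at day 6. All groups carried Lgr5Gfp-CreERT2, which places a green reporter and a tamoxifen-activated Cre under control of the stem cell gene Lgr5, so that a floxed allele is cut only in cells with an active Lgr5 promoter. RingKO (2 libraries) carried in addition Ring1a-/-, a null allele present in every cell of the animal, and Ring1bf/f, the floxed allele; WT (2 libraries) carried neither. Bcat_RingKO (1 library) carried the Ctnnb1-ex3 allele of the beta-catenin gene together with Ring1a-/- and Ring1bf/f, and Bcat (1 library) carried Ctnnb1-ex3 without the Ring alleles. The sources used here give neither the animals' age nor any pooling. They do not say that the libraries of a group came from separate animals, so the spread between them may be technical.

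Pentraxins are secreted proteins that assemble into rings and bind phosphocholine and other ligands on microbes and damaged cells in the presence of calcium. The best known members, Crp (C-reactive protein) and Apcs (serum amyloid P), are made in liver, whereas the mucosal pentraxins are made by the gut epithelium. In mouse small intestine Mptx2 is known as a marker of Paneth cells, the crypt-base cells that secrete antimicrobial peptides beside the Lgr5 stem cells. The founding mucosal pentraxin was described in rat colon, where its level responds to the diet.

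Reads of the single libraries were recovered from the deposited values. Within a group the libraries carry the letters A and B, since nothing ties them to the numbered samples. Reads assigned to entries came to 2911422 and 2651201 in RingKO, 6753789 and 6294932 in WT, 4470853 in Bcat_RingKO and 922153 in Bcat. Among the 7939 better measured entries (mean 50 or more after normalization), library A against library B gave log2 ratios with an SD of 0.446 in RingKO and 0.245 in WT. Ring1, the gene of Ring1a, had 9 and 11 reads in RingKO, against 484 and 363 in WT. It had 43 reads in Bcat_RingKO and 24 in Bcat, a normalized ratio of 0.358 (95% counting interval 0.213 to 0.617). This reduction was smaller than that in RingKO against WT (authors' deposited log2 -4.17). Why was not tested. Rnf2, the gene of the floxed Ring1b, was not lower: it had 142 and 103 reads in RingKO and 220 and 246 in WT (authors' deposited table: log2 0.16, adjusted p = 1). The Bcat_RingKO library had 546 and the Bcat library 78. Reads from outside a deleted exon do not check a deletion, and the values of single exons were not analysed here. Lgr5, the gene behind the sort, was detected in all 6 libraries, with 461 and 222 reads in RingKO, 942 and 922 in WT, 1505 in Bcat_RingKO and 146 in Bcat.

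The paralogs lie on mouse chromosome 1 on opposite strands, Mptx1 on the plus and Mptx2 on the minus strand, with 37 other RefSeq genes between them. Each is transcribed from 2 exons into a short messenger RNA, 799 bases for Mptx1 and 794 for Mptx2 in the GENCODE annotation, and each encodes 219 amino acids. Their transcripts were identical at 734 of 794 aligned bases (92.4%), their coding sequences at 91.9% and their proteins at 84.9%. The sources used here do not give the counting method, so this likeness bears on every value below. Of the 50-base windows in the Mptx1 transcript 17.9% were found letter for letter in Mptx2, and of 100-base windows 3.3%, and the longest identical stretch was 112 bases. The stretch of 100 coding bases that differs most, at coding positions 525 to 624 counted from the start codon, is printed to show what tells the transcripts apart. It holds 15 differences, which are in capitals.
Mptx1: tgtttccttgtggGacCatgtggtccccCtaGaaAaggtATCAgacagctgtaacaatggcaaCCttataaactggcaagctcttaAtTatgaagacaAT
Mptx2: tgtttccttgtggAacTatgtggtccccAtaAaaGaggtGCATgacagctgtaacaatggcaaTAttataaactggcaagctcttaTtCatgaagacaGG

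**Figure D1:**
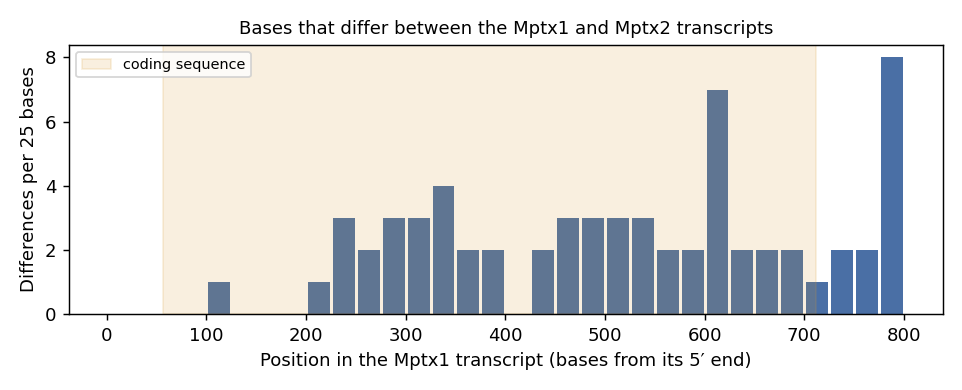
Bases that differ between the aligned Mptx1 and Mptx2 transcripts, counted in bins of 25 bases (y axis) along the Mptx1 transcript (x axis, bases from its 5′ end), with the coding sequence shaded. A base left without a partner in the alignment counts as a difference here. The first 100 bases hold no difference, and the most are in the bin from base 601, with 7, and in the last bin, with 8.

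The bases before the annotated starts are also alike, identical at 197 of 228 aligned positions (86.4%). They are shown because genes this alike upstream had opposite differences between Bcat_RingKO and Bcat, given below. The 250 bases before each start were taken from RefSeq on build GRCm38.p6, 5′ to 3′ on the gene's own strand: Mptx1 at chr1:174330268-174330517 on the plus strand, Mptx2 at chr1:173277757-173278006 on the minus strand. Capitals mark TATAA, the core of the TATA box, and CTTTGA, the core bound by TCF/LEF factors, which act with beta-catenin, on either strand.
Mptx1: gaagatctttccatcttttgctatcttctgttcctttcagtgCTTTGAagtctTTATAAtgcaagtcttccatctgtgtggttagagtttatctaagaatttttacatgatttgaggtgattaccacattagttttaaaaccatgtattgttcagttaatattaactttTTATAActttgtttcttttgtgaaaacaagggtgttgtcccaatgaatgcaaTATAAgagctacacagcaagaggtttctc
Mptx2: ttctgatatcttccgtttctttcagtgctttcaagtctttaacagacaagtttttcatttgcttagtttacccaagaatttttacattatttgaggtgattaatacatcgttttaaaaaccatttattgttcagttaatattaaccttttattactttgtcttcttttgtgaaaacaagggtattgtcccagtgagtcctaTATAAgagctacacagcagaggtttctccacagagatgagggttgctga

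TATAA stood upstream of the start in both genes, and it is found in 22.8% of 32851 RefSeq windows of this length. Mptx1 held 5 matches to it, counting both strands of the palindrome TTATAA, and Mptx2 held 1. CTTTGA had 1 match in Mptx1 and 0 in Mptx2, and it is found in 13.8% of windows. Of letters bound by the intestinal Cdx factors, TTTATT had 0 matches in Mptx1 and 2 in Mptx2 (18.1% of windows), and TTTATG had 0 in both (10.8%). Only these 2 forms were counted. The similar form TTTATA, left out of the count, stands in the printed Mptx1 sequence but not in that of Mptx2. The E-box CAGCTG of the secretory factor Atoh1 had 0 in both (13.0%). The motifs were chosen with these sequences in view, and a match is a description of letters only.

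Both mucosal pentraxins were higher in RingKO than in WT cells, Mptx1 far more than Mptx2. Mptx1 had 622 and 654 reads in the RingKO libraries, against 21 and 24 reads in the deeper WT libraries. Divided by the authors' size factors these were 884 and 939 normalized reads in RingKO and 13.4 and 16.9 in WT, or 911 ± 39.1 and 15.2 ± 2.47 (SD, n = 2 each). The RingKO libraries lay close together and the groups did not overlap: any RingKO library was 52.3 to 69.97 times any WT library. In the authors' deposited table the means were 913 in RingKO and 15.8 in WT, a fold of 57.6 (log2 5.85, adjusted p = 4.92e-86), the smallest p of all 18376 entries. By fold it ranked 21 among those 7939 better measured entries.

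Mptx2, the Paneth cell marker, was abundant in both genotypes. It had 936 and 759 reads in RingKO, against 563 and 295 in WT. Normalized, these were 1330 and 1090 reads in RingKO and 359.9 and 208 in WT, or 1210 ± 170 and 284 ± 107 (SD, n = 2 each). Here too both RingKO libraries were above both WT libraries, by 3.03 to 6.398 times, but the WT libraries differed from each other more than those of Mptx1 did. The authors' deposited table gave means of 1211 in RingKO and 285 in WT, a fold of 4.26 (log2 2.09, adjusted p = 1.36e-09). By edgeR on the recovered reads the log2 fold change was 6.09 ± 0.19 for Mptx1 and 2.26 ± 0.26 for Mptx2 (SE). Over all entries the authors' adjusted p was under 0.05 for 3.14% as higher in RingKO and for 1.76% as lower, and 18.0% had both RingKO libraries above both WT libraries. Both members met both criteria for higher, which follows from how the pair was chosen, so nothing is read from it.

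In the presence of the Ctnnb1-ex3 allele the paralogs went opposite ways. Mptx1 had 505 reads in Bcat_RingKO and 10 reads in Bcat, which is 226 and 22.4 normalized reads, a ratio of 10.1 (exact 95% counting interval 5.45 to 21.2). The authors' deposited table, in which 1 read is added in each library, gave a fold of 9.20. Mptx2 had 465 reads in Bcat_RingKO and 462 in the shallower Bcat library, which is 208 and 1033 normalized reads, a ratio of 0.201 (0.177 to 0.229). Of the 17076 entries measured here, 21.8% were at least 2-fold higher in Bcat_RingKO and 20.8% at least 2-fold lower by the deposited folds. Of these entries 12512 had reads in Bcat. With 1 read added to each library, an entry without reads in either comes out at least 2-fold lower in Bcat_RingKO. The shares therefore do not show how common such differences were among entries with as many reads as Mptx2. With 1 library a group there is no replicate check, and the intervals cover counting error only. Of the 577 entries called higher in RingKO against WT, 497 (86.1%) were at least 2-fold higher in Bcat_RingKO as well, as Mptx1 was, and 20 (3.47%) were at least 2-fold lower, as Mptx2 was.

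Set on a single scale, RPM (reads scaled to a common library total over the 16387 entries that both tables hold), the levels can be ordered across all 4 genotypes, with the reserve that the authors scaled the tables separately. Mptx1 stood at 214 and 247 RPM in RingKO, 113 in Bcat_RingKO, 10.8 in Bcat, and 3.11 and 3.81 in WT. Bcat_RingKO and Bcat have 1 library each, so a lack of overlap between neighbours in that order is not read as a result. Bcat rests on 10 reads and was 3.14 times WT, with a counting interval of 1.41 to 6.33. Mptx2 stood at 501 RPM in Bcat, 322 and 287 in RingKO, 104 in Bcat_RingKO, and 83.4 and 46.9 in WT. Bcat was 6.01 to 10.7 times the WT libraries for Mptx2, whereas Bcat_RingKO was 0.323 to 0.363 times the RingKO libraries. Bcat_RingKO and WT were neighbours in this order, and the distance of Bcat_RingKO from the higher WT library was smaller than that between the WT libraries. Per transcript length the paralogs were nearest to each other with the Ring alleles: in RPKM, which is RPM divided by transcript length in kilobases, Mptx1 stood at 268 and 309 in RingKO against 405 and 361 for Mptx2, and at 141 against 131 in Bcat_RingKO. Without them the gap in RPKM was wide, 3.89 and 4.77 for Mptx1 in WT against 105 and 59.1 for Mptx2, and 13.6 against 631 in Bcat.

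**Figure D2:**
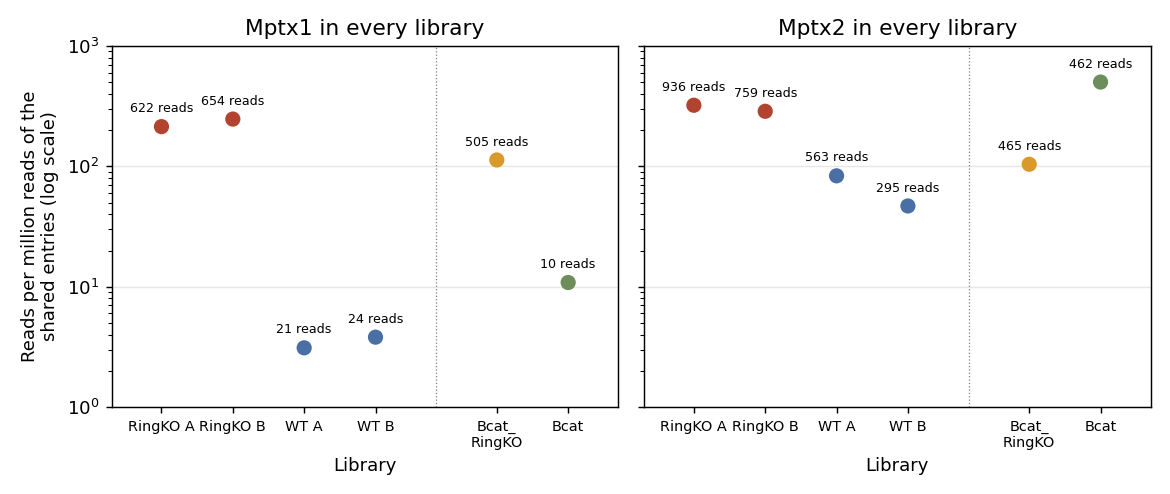
RPM over the shared entries (log scale) for Mptx1 (left) and Mptx2 (right) in each library, 1 point a library with its read count, the dotted line parting the 2 tables. Mptx1 is high in the 3 libraries with the Ring alleles (113 to 247) and low in the other 3, while Mptx2 is highest in Bcat (501) and lowest in WT.

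The share that Mptx1 takes of all mucosal pentraxin reads needs no scaling between libraries. It was 39.9% (exact Clopper-Pearson 95% interval 37.5 to 42.4) and 46.3% (43.7 to 48.9) in RingKO, against 3.60% (2.24 to 5.44) and 7.52% (4.88 to 10.99) in WT. With the Ctnnb1-ex3 allele it was 52.1% (48.9 to 55.2) in Bcat_RingKO and 2.12% (1.02 to 3.86) in Bcat. The 3 libraries with the Ring alleles thus held 39.9% to 52.1% and the 3 without them 2.12% to 7.52%, with no overlap of ranges or intervals between the genotypes of either pair. As a ratio of Mptx1 to Mptx2 reads, a RingKO library was 8.17 to 23.1 times a WT library, and Bcat_RingKO was 50.2 times Bcat.

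**Figure D3:**
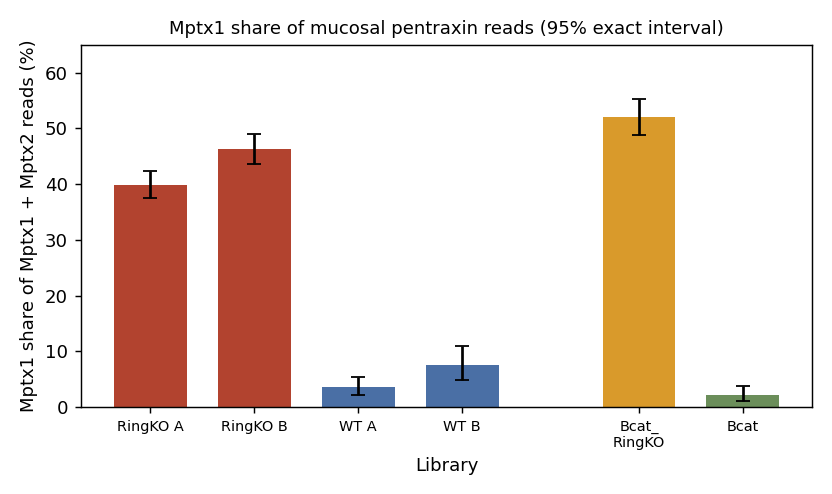
Share of Mptx1 in the summed Mptx1 and Mptx2 reads of each library (y axis, percent), with exact 95% binomial intervals as error bars that cover counting error only. The libraries with the Ring alleles stand at 39.9% to 52.1% and the others at 2.12% to 7.52%.

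The near-identity of the transcripts limits how finely reads could be divided between the paralogs. In Bcat, 10 reads were counted to Mptx1 beside 462 to Mptx2. At that ratio the Mptx2 reads of the other libraries would go along with 20.3 and 16.4 reads of Mptx1 in RingKO and 10.1 in Bcat_RingKO, where 622, 654 and 505 were counted, and with 12.2 and 6.39 in WT, where 21 and 24 were counted. No library had Mptx1 reads without many Mptx2 reads, so how much of the Mptx2 count in RingKO came from Mptx1 transcripts was not tested. How many of the few Mptx1 reads in WT and Bcat came from Mptx2 transcripts was not tested either.

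Paneth cell genes moved alongside. Of 21 Paneth secretory genes listed, 18 were in the first table, and of these 12 rose in RingKO and 0 fell in the authors' deposited table (15 and 0 at an unadjusted p under 0.05). On recovered reads edgeR called 15 higher, DESeq2 12 and limma 14, and each called 0 lower. Their median log2 fold was 1.72, against 0.02 over all entries and -0.18 over those with a mean of at least 10. Over all entries 3.14% were called higher and 1.76% lower in the authors' deposited table. Lyz1, the gene of lysozyme, rose with 9131 and 12553 reads in RingKO and 10460 and 6311 in WT (log2 1.48 in the authors' deposited table, adjusted p = 0.0114). Itln1, the gene of a sugar-binding lectin, rose with a log2 fold of 1.62 (adjusted p = 2.24e-08), and the antimicrobial peptide gene Defa24 with 1.72 (adjusted p = 1.26e-16). Defensin genes are near-identical copies among which reads may be split. Mptx2, at log2 2.09, was within the range of the 16 list genes with at least 100 reads over all libraries, 0.98 to 2.42, whose upper end was the ribonuclease gene Ang4. Mptx1, at 5.85, was above all of them and above Defa25, which stood at 2.67 on 4 reads.

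Between Bcat_RingKO and Bcat the list ran lower. Of 17 Paneth secretory genes measured there, 14 were at least 2-fold lower in Bcat_RingKO and 1 at least 2-fold higher by the deposited folds. The 14 include Defa20, with 1 read in Bcat_RingKO and 0 in Bcat, which came out lower only through the added read. Over all entries 20.8% were at least 2-fold lower and 21.8% higher. The list's median log2 ratio was -1.88, against 0.00 over all entries and 0.31 over those with a mean of at least 10. Lyz1 had 1726 reads in Bcat_RingKO and 1575 in the shallower Bcat library (log2 -2.19), Itln1 1854 and 1364 (log2 -1.88), and Defa24 207 and 169 (log2 -2.03). Mptx2, at -2.31, lay just below the lowest of the list, Defa5 (-2.20), while Mptx1, at 3.20, lay above the highest, Habp2 (1.28), which encodes a secreted protease. The lipase-related gene Pnliprp2 stood at 0.12 and the phospholipase gene Pla2g2a at -0.74.

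**Figure D4:**
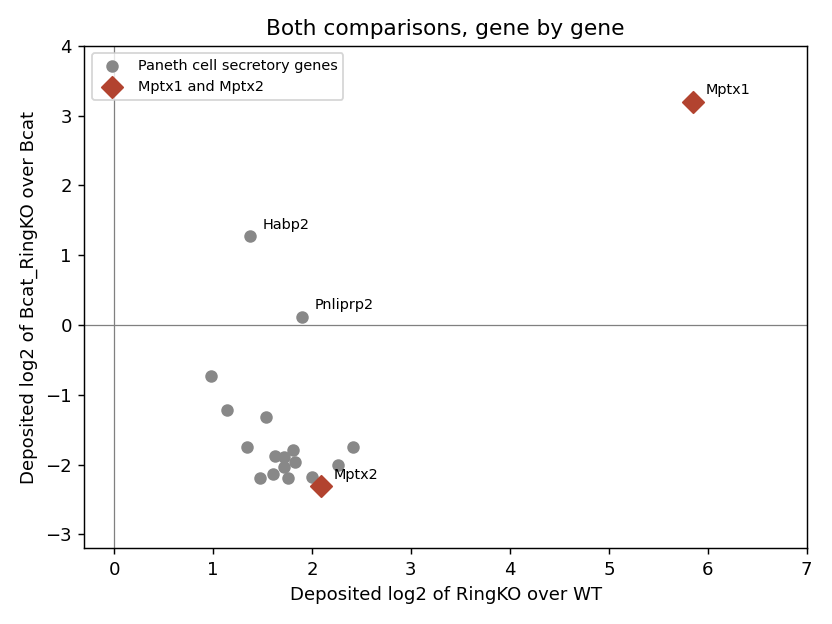
Deposited log2 ratio of Bcat_RingKO over Bcat (y axis) against that of RingKO over WT (x axis), 1 point a gene, for Paneth secretory genes (grey) and the mucosal pentraxins (red diamonds). Mptx2, at 2.09 and -2.31, sits at the edge of the Paneth genes, and Mptx1, at 5.85 and 3.20, stands apart from them in both directions.

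Summed over the 17 list genes in both tables, Paneth genes had 11297 and 16017 RPM in RingKO, 4946 and 3115 in WT, 1916 in Bcat_RingKO and 5858 in Bcat. Of these genes Defa20, with 0 reads in Bcat, was the only 1 at 0 in any library. In cells sorted in bulk, fewer cells of a type and less RNA per cell cannot be told apart. Against each 1000 of these Paneth reads Mptx2 had 28.5 and 17.9 reads in RingKO and 16.9 and 15.1 in WT. In the Bcat pair it had 54.3 per 1000 in Bcat_RingKO and 85.6 in Bcat. Mptx1 had 18.9 and 15.4 per 1000 in RingKO but 0.629 and 1.22 in WT, and 59.0 in Bcat_RingKO but 1.85 in Bcat. Relative to the list Mptx1 was thus 18.5-fold higher in RingKO than in WT and 31.8-fold higher in Bcat_RingKO than in Bcat, and Mptx2 was 1.45-fold and 0.635-fold. Among 16 list genes with at least 100 reads over all libraries, each set against the sum of the others, this relative fold ran from 0.584 to 1.82 in RingKO against WT and from 0.613 to 8.31 in the Bcat pair, Habp2 being the highest there. Mptx2 was inside both ranges and Mptx1 outside both.

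Set against Lyz1 alone, a gene with many reads in all libraries, Mptx2 had 103 and 60.5 reads per 1000 Lyz1 reads in RingKO and 53.8 and 46.7 in WT. It had 269 in Bcat_RingKO and 293 in Bcat. Its ratio to Lyz1 was higher in both libraries with the Ctnnb1-ex3 allele than in any of the 4 without it. This was not particular to Mptx2. The ratios of the list genes Clps, Ang4 and Defa26 to Lyz1 parted in the same way. Those of Defa24 and Defa5 were lower in both libraries with the allele than in any without it. Mptx1 had 68.1 and 52.1 per 1000 in RingKO and 2.01 and 3.803 in WT, and 293 in Bcat_RingKO and 6.35 in Bcat. Here the libraries parted by the Ring alleles.

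**Figure D5:**
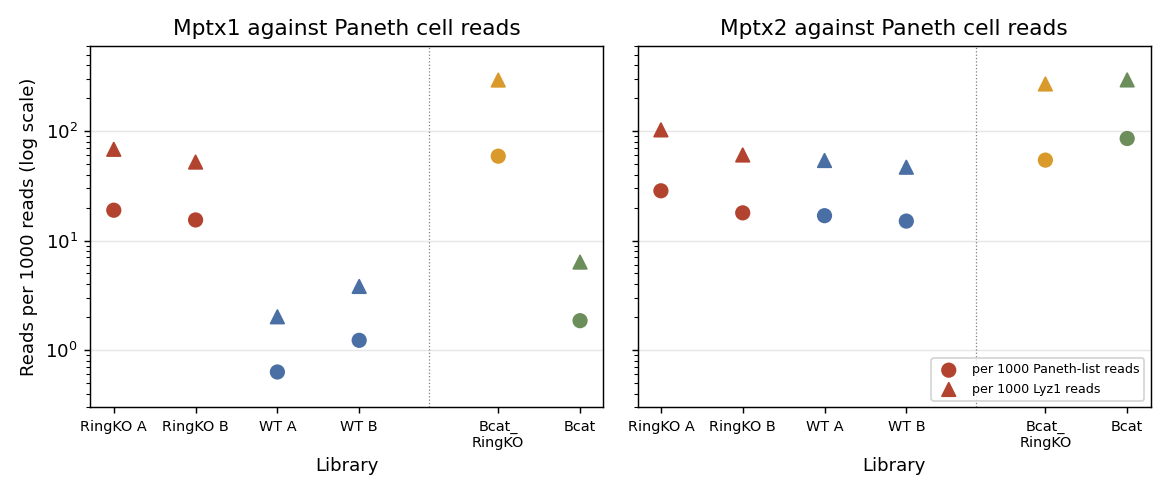
Mptx1 (left) and Mptx2 (right) reads per 1000 reads of the summed Paneth list (circles) and per 1000 Lyz1 reads (triangles) in each library (log scale), the dotted line parting the tables. Mptx1 differs between the libraries with the Ring alleles and those without, 15.4 to 59.0 against 0.629 to 1.85 per 1000 Paneth reads, while Mptx2 stays between 15.1 and 85.6.

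Of 12 regulators of the Paneth lineage, 0 were called in either direction in the authors' deposited table (at an unadjusted p under 0.05, 1 higher and 0 lower). With 3.14% of all entries called higher, a count of 0 among 12 is near the background. By edgeR, DESeq2 and limma 1 was higher and 0 lower. In edgeR this was Bhlha15, a factor of secretory cells, singled out here after its values were seen, with 199 and 332 reads in RingKO and 206 and 181 in WT (edgeR log2 1.74, adjusted p = 0.00374; authors' deposited log2 1.55, adjusted p = 0.144). The median log2 fold of the list was -0.15. Sox9, a factor needed for Paneth cells to form, had 910 and 822 reads in RingKO and 1787 and 1523 in WT (log2 0.16), and the receptor genes Ephb3 (-0.17) and Ephb2 (-0.38), which position cells along the crypt, did not pass. Between Bcat_RingKO and Bcat 6 of 12 were at least 2-fold higher and 1 at least 2-fold lower, beside 21.8% and 20.8% of all entries. The lower 1 was Fzd5, with 4 reads in Bcat_RingKO and 1 in Bcat, which reached that size only with the added read.

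Of 16 other proteins of epithelial defence measured in RingKO and WT, 6 fell and 0 rose in the authors' deposited table (9 lower and 1 higher at an unadjusted p under 0.05; edgeR and limma called 4 lower and 1 higher, DESeq2 5 and 1), with a median log2 fold of -0.85. Dmbt1, the gene of a mucin-like scavenger protein, fell (log2 -1.46, adjusted p = 9.93e-13), as did Pigr, the antibody transporter (log2 -0.59, adjusted p = 0.0298), while the lectin gene Reg4 stood at -0.38 and did not pass. By edgeR Pigr did not pass (adjusted p = 0.185). The peptidoglycan-binding gene Pglyrp1, singled out after its values were seen, passed in edgeR as higher (log2 0.79, adjusted p = 0.0207) but not in the authors' deposited table (log2 0.60, adjusted p = 0.0539). In Bcat_RingKO against Bcat 10 of 17 were at least 2-fold lower, as Mptx2 was, and 1 at least 2-fold higher. The 10 include Camp, with 4 reads in Bcat_RingKO and 1 in Bcat, which reached that size only with the added read. Of 11 goblet cell genes 1 rose, the trypsin inhibitor gene Spink4 (log2 1.46, adjusted p = 9.66e-05), and 0 fell (1 lower at an unadjusted p under 0.05, and 1 each by edgeR, DESeq2 and limma). The most abundant of them were Fcgbp (log2 -0.01) and the trefoil gene Tff3 (0.55), which did not pass. Over all entries 3.14% were called higher in RingKO and 1.76% lower, and 1 goblet gene of 11 is not read as a result. Between Bcat_RingKO and Bcat 4 of 11 goblet genes were at least 2-fold higher and 4 at least 2-fold lower, beside 21.8% and 20.8% of all entries.

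Of the rest of the pentraxin family, 5 of 7 genes listed were in the first table. Over all entries 3.14% were called higher and 1.76% lower. In this list 2 rose in RingKO and 0 fell (likewise 2 and 0 at an unadjusted p under 0.05, by edgeR, by DESeq2 and by limma). These were genes of the neuronal pentraxins, which cluster receptors at synapses. Nptx2 had 83 and 71 reads in RingKO and 47 and 71 in WT (log2 1.45, adjusted p = 0.00285), and its receptor gene Nptxr had 29 and 24 in RingKO and 8 and 3 in WT (log2 3.20, adjusted p = 0.000263). Nptx1 stood at 0.53 and did not pass. Nptx2 had 125 reads in Bcat_RingKO and 2 in Bcat, and Nptx1 86 and 3. The liver pentraxin genes Crp and Apcs, which lie on the same chromosome 17 and 13 genes from Mptx2, had at most 19 reads in any library. Crp had 4 and 14 reads in RingKO, 19 and 16 in WT, 13 in Bcat_RingKO and 4 in Bcat.

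On chromosome 1, the 5 nearest RefSeq genes with a row on each side of Mptx1 and of Mptx2 made 18 distinct genes, most of them nearly silent, with 4 at a mean of at least 10. Of the 18, 0 were called in either direction in the authors' deposited table (at an unadjusted p under 0.05, 0 higher and 1 lower). By edgeR, DESeq2 and limma 0 were called. With 3.14% of all entries called higher and 1.76% lower, a count of 0 among 18 is near the background. Among those around Mptx1, the formin gene Fmn2 had 8 and 7 reads in RingKO and 6 and 6 in WT. Nearest to Mptx2 were Darc, a chemokine-binding receptor gene with 0 and 1 reads in RingKO and 0 in both WT libraries, and Cadm3. Aim2, a sensor of DNA in the cytosol that lies 3 genes from Mptx2, had 6 and 68 reads in RingKO, 31 and 20 in WT, 514 in Bcat_RingKO and 20 in Bcat. Its RingKO libraries stood on both sides of WT.

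Likeness of profile was measured as the root mean square difference of log2 normalized reads, each gene centred on its mean over the 6 libraries, among 7698 entries that averaged 50 normalized reads or more on joint size factors. The genes most like Mptx2 were Clps (0.380), which encodes a cofactor of lipase, Ang4 (0.421), Defa26 (0.447), Gm15292 (0.505), Defa-ps1 (0.575) and Gm17821 (0.696). Clps and Ang4 were on the Paneth list, and so was Defa26. The genes most like Mptx1 were none of the Paneth list: Gpc3 (0.672) and Gpc1 (0.728), which encode cell-surface proteoglycans, the adhesion gene Cadm4 (0.719), the homeobox gene Hoxa7 (0.763), Aebp1 (0.768) and Scarf2 (0.779). Gpc3 had 272 and 120 reads in RingKO, 11 and 14 in WT, 259 in Bcat_RingKO and 2 in Bcat. The distance between the paralogs was 2.24, which ranked Mptx2 500th in likeness to Mptx1 and Mptx1 7617th in likeness to Mptx2. The likeness counts the same values that chose the pair and is a description over 6 libraries.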

How the data were processed

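Messenger RNA libraries of sorted Lgr5-GFP+ cells were made with the TruSeq RNA v2 kit, per the labels' protocols. TopHat, DESeq and build mm9 are named, without versions, in the submitters' processing notes. The sources used here do not give the read counter, annotation, read length or use of strand. The authors deposited normalized read signal per RefSeq entry: means of 2 libraries for WT and RingKO, and single values for the Bcat pair, each with a fold (ratio) and its log2 value. For RingKO against WT they also deposited p-values and adjusted p-values over 18376 entries. For the Bcat pair they deposited p-values only, which are left out here because it has 1 library a group. The values show that 1 was added to each library's reads before division by its size factor.

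Counts of both libraries were solved from each mean. In RingKO all 18376 entries had 1 solution, in WT 18364, and the other 12 had means of 13128 or more. In the Bcat pair all 17076 values per library were whole within 0.001. The procedure was tested on simulated data. A call is the authors' adjusted p under 0.05. Added tests on the counts were edgeR 4.0.16 (quasi-likelihood, TMM, filterByExpr), DESeq2 1.42.0 and limma 3.58.1 (limma-trend on log2 normalized reads plus 1), all with Benjamini-Hochberg adjustment over all entries tested. Intervals are exact binomial (scipy 1.17.1) and cover counting error only. Sequence comparisons used Biopython 1.88 and GENCODE M21, on GRCm38. Of the first table's entries 98.7% matched RefSeq on GRCm38, which served for names and gene order only.

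The members, the 12 gene lists (144 genes) and the tests were chosen with earlier results of these data known. Genes named are both members, Ring1 and Rnf2, the 6 entries most like each member, the 3 most abundant genes of each list and some of the 5 nearest neighbours on each side, of which 1 is not reported here. Lgr5, Ang4, Habp2, Pnliprp2, Crp, Apcs, Bhlha15, Pglyrp1, Sct, Defa5, Defa20, Defa25, Pla2g2a, Fzd5, Camp, Ace, C1qa and Pdgfra were named after their values were seen. Alternatives changed the scaling, the pseudocount, the test, the length correction and the libraries used.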

Additional observations from a re-analysis of the deposited data

Results flagged for a closer look

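The change of Mptx2 with the Ring alleles took opposite directions in the 2 backgrounds. Its log2 ratio was 2.09 for RingKO over WT, where both RingKO libraries lay above both WT libraries, and -2.31 for Bcat_RingKO over Bcat, with 1 library each. The difference between the comparisons was not tested. The summed Paneth list ran the same 2 ways, with 11297 and 16017 RPM in RingKO against 4946 and 3115 in WT, and 1916 in Bcat_RingKO against 5858 in Bcat. Its part in the result was not tested.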

How the results depend on the processing

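Scaled by total reads or by TMM the log2 fold of Mptx1 in RingKO against WT was 6.06 in each case, and with 5 added to normalized reads 5.51. Leaving out 1 library at a time gave 5.75 to 6.09 for Mptx1 and 1.75 to 2.54 for Mptx2, the highest Mptx2 value without WT library A. By TMM the log2 ratio of Mptx2 in Bcat_RingKO over Bcat was -2.53. In Bcat over WT it was 2.67 by TMM, and 2.59 to 3.42 with 1 WT library left out, against 2.94 with both; Mptx1 there was 1.65 (1.37 to 1.80 over the alternatives). No alternative turned a direction of either gene. By reads per kilobase the mean Mptx1 share was 43.0% in RingKO and 5.53% in WT, against 43.1% and 5.56% by reads. In Bcat_RingKO it was 51.9% and in Bcat 2.11%, against 52.1% and 2.12%. With 2 libraries a group, leaving 1 out always moves the mean share by less than their SD, so that alternative was no check. Entries called higher numbered 577 in the authors' table, 1107 by edgeR, 1060 without its filter, 1087 with DESeq2 size factors, 872 by DESeq2 and 962 by limma-trend. With 1 library left out in edgeR, entries called numbered 479 to 1938 higher and 83 to 1338 lower, and listed genes 18 to 43 higher and 15 to 38 lower; the lone library is assumed to vary like the other group. Entries called lower, 323 in the authors' table, numbered 87 without WT library A, 83 without WT library B, 1338 without RingKO library A and 589 without RingKO library B. Entries called higher were 1938 without RingKO library A and 1322 without RingKO library B. The cause was not tested. Paneth secretory genes called higher numbered 12 to 17 under these tests. No paired analysis was possible because recovered libraries cannot be tied to replicate numbers. Depth limits Mptx1 most in Bcat (10 reads) and WT (21 and 24).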

Other observations

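Markers of other cell types were listed to show what else the sorted cells held. Over all entries 3.14% were called higher in RingKO and 1.76% lower. In Bcat_RingKO against Bcat 21.8% of all entries were at least 2-fold higher and 20.8% at least 2-fold lower. Counts of 0 or 1 in the short lists below are not read as a result. Lower values in Bcat_RingKO than in Bcat, as Mptx2 and most Paneth genes had, were also found in most enteroendocrine and enterocyte genes. Of 13 enteroendocrine genes 8 fell in RingKO and 1, the hormone gene Sct (log2 1.92), rose in the authors' deposited table, with a median log2 fold of -2.62. Gip, the gene of an incretin hormone, had 70 and 51 reads in RingKO and 1147 and 952 in WT (log2 -3.001), the granule gene Chgb fell (log2 -1.35), and Chga stood at -0.57 and did not pass. In Bcat_RingKO against Bcat 12 of 13 were at least 2-fold lower and 0 at least 2-fold higher, with a median log2 ratio of -2.87. Of 9 tuft cell genes 4 fell and 0 rose (5 lower and 0 higher at an unadjusted p under 0.05, and 4 and 0 by edgeR, DESeq2 and limma). Among them were the taste channel gene Trpm5 (log2 -2.04) and the actin-binding gene Avil (-1.52), while Pou2f3, a factor that tuft cells need, stood at -1.05 and did not pass. Of 7 tuft genes measured in Bcat_RingKO and Bcat, 1 was at least 2-fold lower and 0 at least 2-fold higher.

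Of 11 Lgr5 stem cell genes 3 fell and 0 rose (6 lower and 0 higher at an unadjusted p under 0.05, and 3 and 0 by edgeR, DESeq2 and limma). The 3 most abundant, Olfm4 (log2 -1.25), Slc12a2 (-0.69) and Smoc2 (0.06), did not pass. In Bcat_RingKO against Bcat 4 were at least 2-fold higher and 2 at least 2-fold lower. Of 14 enterocyte genes 3 fell and 1 rose, the peptidase gene Anpep (log2 0.70). Vil1, a gene of the brush border, stood at 0.12 and the glucose transporter gene Slc5a1 at -0.28, and neither passed. In Bcat_RingKO against Bcat 9 of 14 enterocyte genes were at least 2-fold lower and 0 at least 2-fold higher, with a median log2 ratio of -1.77, beside -1.88 for the Paneth secretory list. The 9 include Ace, with 1 read in Bcat_RingKO and 0 in Bcat, which came out lower only through the added read. Pentraxins of the blood bind some proteins of complement and some Fc receptors. Of 11 genes of complement and Fc receptors, 0 were called in either direction by the authors, by edgeR, by DESeq2 or by limma. Among these 11, 0 had an unadjusted p under 0.05. C3, the central complement gene, had 40 and 418 reads in RingKO and 587 and 94 in WT, so the libraries of each genotype lay far apart; C4b (log2 0.85) and Cfb (-0.34) did not pass. Of 10 measured in Bcat_RingKO and Bcat, 7 were at least 2-fold lower by the deposited folds and 0 at least 2-fold higher. The 7 include C1qa, with 1 read in Bcat_RingKO and 0 in Bcat, which came out lower only through the added read. Of 8 immune cell genes 0 were called by any of these, and 0 had an unadjusted p under 0.05; their most abundant were Cd68 (0.95), Lyz2 (0.82) and Cd79a (1.15). In Bcat_RingKO against Bcat 1 of 7 was at least 2-fold higher and 0 at least 2-fold lower. Of 6 stromal and endothelial genes 1 fell, Vim (log2 -1.87), and 0 rose, as by edgeR, DESeq2 and limma and at an unadjusted p under 0.05. Col1a1 (1.12) and Col1a2 (-0.61), collagen genes, did not pass. Of 5 measured in Bcat_RingKO and Bcat, 4 were at least 2-fold lower by the deposited folds and 0 at least 2-fold higher. The 4 include Pdgfra, with 1 read in Bcat_RingKO and 0 in Bcat, which came out lower only through the added read. Col1a1 had 9 reads in Bcat_RingKO and 8 in Bcat.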
